A study of Homo sapiens with 4 samples.

Results

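Serine proteases that epithelial cells carry on their surface or secrete, and Kunitz-type inhibitors of the surface proteases, were described as a group of 9 genes among the 65988 identifiers of the count table. The group was chosen by gene symbol, as the proteases ST14, PRSS8, TMPRSS2, TMPRSS3, TMPRSS4, PRSS22 and PRSS23 and the inhibitors SPINT1 and SPINT2. It was drawn up with the comparison of resistant and wild-type cells already known, so the levels of these genes are given as a description, without a test. Every one of the 9 genes had at least 1 read, and 8 of them, 6 proteases and both inhibitors, passed the filter on low counts. TMPRSS3, TMPRSS4 and PRSS22 passed that filter through the wild-type libraries alone, so a difference was built into their being tested.

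RNA was sequenced in 2 libraries of cisplatin-resistant cells (SKOV3 CR) and 2 libraries of wild-type cells (SKOV3 WT). SKOV3 is an established human ovarian carcinoma cell line. The resistant cells were selected from wild-type cells over 5 months in 6 cycles, each made of 4 hours in cisplatin and 3 weeks of drug-free growth, with the concentration raised from cycle to cycle. Cells of both groups were harvested untreated while growing exponentially, and the labels do not say whether the resistant line is a clone. No line grown equally long without drug was analysed here, so selection by the drug and divergence in culture cannot be told apart.

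Library totals were 65259794 and 79592903 counts in resistant replicates 1 and 2, and 43658695 and 53502349 counts in wild-type replicates 1 and 2. At these depths 1 CPM, the usual unit of counts scaled to the library total, stood for 42.6 to 83.1 reads. All 10 markers fixed for an epithelial ovarian carcinoma line had reads, and their summed level was 2830 to 3480 CPM in resistant cells and 6590 to 7250 CPM in wild-type cells. Most of each sum was ERBB2, at 2841 and 2074 CPM in resistant replicates 1 and 2 and 5248 and 5769 CPM in wild-type replicates 1 and 2. At an edgeR adjusted p under 0.05, 7 of these 10 markers were lower and 1 was higher in resistant cells. Over all tested genes 23.2% were lower and 22.1% higher. Of 9 fibroblast markers 8 had reads and THY1 was listed at 0. The summed fibroblast level was 53.6 to 60.7 CPM in resistant cells against 27.8 to 37.2 CPM in wild-type cells. Single genes weighed heavily in these sums. DCN had 31.6 and 21.9 CPM in resistant replicates and 0.0939 and 0.0195 CPM in wild-type replicates. COL1A2 went the other way, with 4.29 and 3.27 CPM in resistant replicates and 17.8 and 20.4 CPM in wild-type replicates. Of the 7 fibroblast markers tested, 3 were higher and 1 lower by the same test. The 5 endothelial markers summed to 1.86 to 2.07 CPM in resistant cells and 9.95 to 11.6 CPM in wild-type cells. Most of the wild-type endothelial sum was PECAM1, at 10.2 and 7.65 CPM, against 0.765 and 0.854 CPM in resistant replicates. The 6 leukocyte markers summed to 1.08 to 1.6 CPM in resistant cells and 0.517 to 1.5 CPM in wild-type cells. The part of these markers in the results below was not tested. In such bulk libraries, fewer cells that express a gene and less RNA per cell cannot be told apart.

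Matriptase, the product of ST14, and the TMPRSS proteases span the membrane once near their amino terminus and expose a trypsin-like protease domain outside the cell. Prostasin, the product of PRSS8, is held by a lipid anchor, and matriptase and prostasin can activate each other in epithelia. The hepatocyte growth factor activator inhibitors encoded by SPINT1 and SPINT2 are themselves membrane proteins, whose Kunitz domains block these proteases. PRSS22 and PRSS23 encode secreted proteases, so the 9 genes are not all genes of membrane proteins.

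Promoter windows of 300 bases, from 250 bases before to 50 bases from the annotated start, were at hand in RefSeq (GRCh38.p14) for 3 of the 9 genes, with 5 windows in all. The windows at hand set which genes are shown, and of these SPINT1 and TMPRSS3 were lower and PRSS23 was higher in resistant cells. Capitals mark CAGGTG or its reverse complement CACCTG, the E-box bound by the ZEB and SNAI repressors, and GGGCGG or CCGCCC, the GC box. The SPINT1 windows lie on the plus strand at chr15:40843798-40844097 and chr15:40844227-40844526, the TMPRSS3 window on the minus strand at chr21:42389100-42389399, and the first PRSS23 window on the plus strand at chr11:86800292-86800591. The TMPRSS3 window lies inside the gene span used below, which reaches 42396846 on the side of its start.
SPINT1 window 1: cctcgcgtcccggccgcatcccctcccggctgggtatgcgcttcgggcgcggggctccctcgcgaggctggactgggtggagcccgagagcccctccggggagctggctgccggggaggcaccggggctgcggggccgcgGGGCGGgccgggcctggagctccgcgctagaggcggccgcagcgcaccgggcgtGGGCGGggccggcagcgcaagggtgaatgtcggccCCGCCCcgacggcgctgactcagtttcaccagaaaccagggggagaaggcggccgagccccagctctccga
SPINT1 window 2: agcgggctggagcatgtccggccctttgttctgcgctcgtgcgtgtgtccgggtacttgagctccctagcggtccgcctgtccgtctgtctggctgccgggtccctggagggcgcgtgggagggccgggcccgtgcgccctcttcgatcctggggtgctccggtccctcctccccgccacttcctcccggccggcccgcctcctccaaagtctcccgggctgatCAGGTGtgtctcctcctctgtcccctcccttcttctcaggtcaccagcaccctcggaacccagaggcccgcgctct
TMPRSS3: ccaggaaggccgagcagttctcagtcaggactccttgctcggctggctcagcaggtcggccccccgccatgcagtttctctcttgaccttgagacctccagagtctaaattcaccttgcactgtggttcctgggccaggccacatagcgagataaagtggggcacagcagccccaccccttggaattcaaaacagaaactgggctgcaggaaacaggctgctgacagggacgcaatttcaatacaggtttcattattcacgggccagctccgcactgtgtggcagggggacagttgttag
PRSS23 window 1: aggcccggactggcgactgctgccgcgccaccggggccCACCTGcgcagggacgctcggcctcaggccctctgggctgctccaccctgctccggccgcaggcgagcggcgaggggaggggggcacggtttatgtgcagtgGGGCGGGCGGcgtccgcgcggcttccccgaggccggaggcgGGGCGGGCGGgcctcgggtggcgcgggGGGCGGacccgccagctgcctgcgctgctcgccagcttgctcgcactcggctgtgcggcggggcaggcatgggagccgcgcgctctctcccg

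The E-box letters occurred once in the second SPINT1 window, starting 26 bases before the start site, and once in the first PRSS23 window, 212 bases before it. They were not found in the TMPRSS3 window, in the first SPINT1 window or in the second PRSS23 window at chr11:86790821-86791120. Of all 35116 RefSeq windows of this length, 20.6% hold the E-box letters on either strand. GC boxes numbered 3 in the first SPINT1 window and 5 in the first PRSS23 window, where 2 pairs overlap each other, and 45.0% of all windows hold at least 1. Neither TATAAA, present in 11.5% of all windows, nor AACCGGTT, the site of the grainyhead-like factors, present in 0.134%, was found in any of the 5 windows. The first windows of SPINT1 and PRSS23 held 38 and 40 CG pairs, against a median of 14.0 over all windows, while the TMPRSS3 window held 8. The second SPINT1 window held 25 CG pairs and no GC box, and the second PRSS23 window held 2 CG pairs. Windows with more CG pairs than the median thus belong to a gene that was lower and to a gene that was higher.

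In resistant cells the inhibitors and most of the proteases with reads were at lower levels, and 1 secreted protease was at a higher level. The fit of all genes with edgeR called 6 of the 8 tested genes lower and 1 higher, and did not call PRSS8. Over the whole table the same fit called 23.2% of 18602 tested genes lower and 22.1% higher, 45.3% together. Because the group was chosen with this comparison known, nothing is read from its count. For the same 6 genes both resistant libraries lay below both wild-type libraries, a pattern that 36.4% of all tested genes share. The middle value of the 18602 log2 changes was 0.0032.

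**Figure D1:**
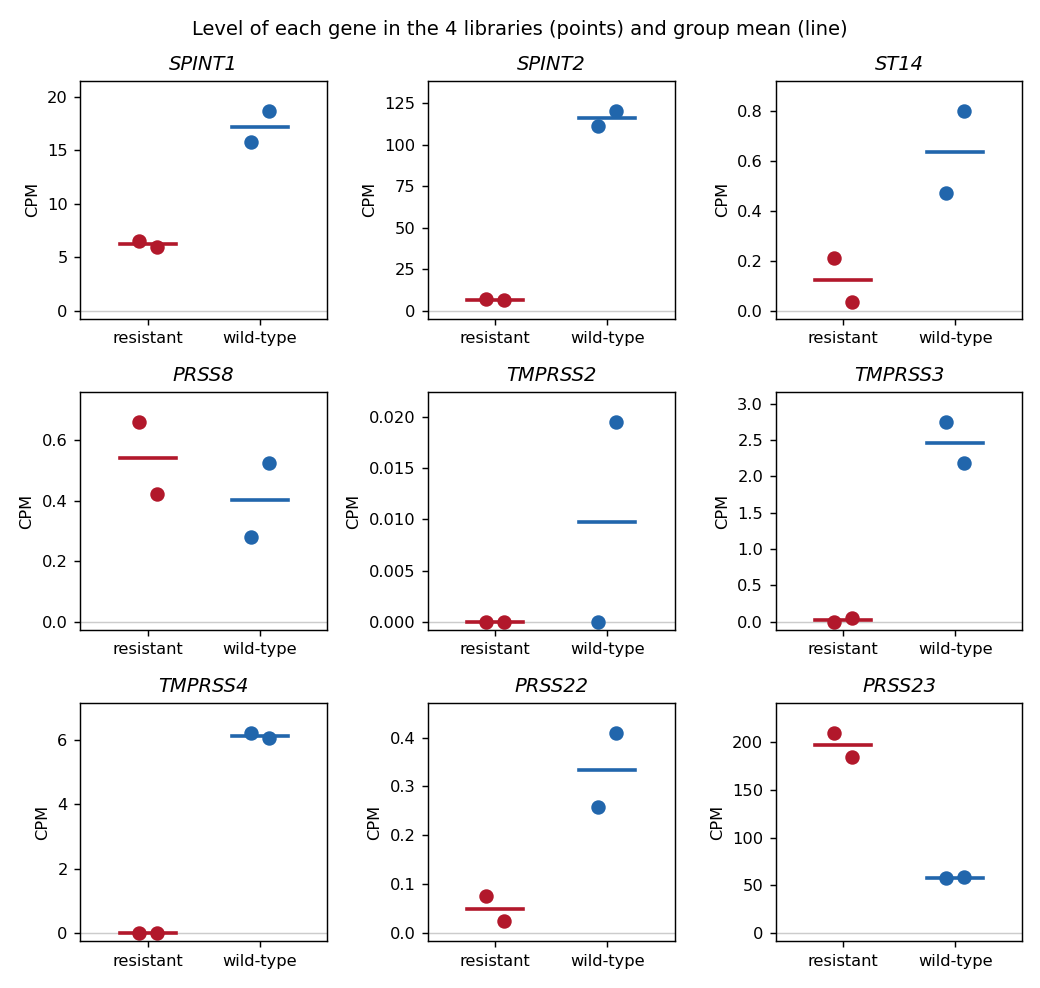
Level in CPM (vertical axes, each with its own scale from 0) of the 2 inhibitor and 7 protease genes in resistant (red, left) and wild-type libraries (blue, right). Points are libraries and lines are group means of 2. The groups overlap for PRSS8 and TMPRSS2, PRSS23 is higher in resistant cells, and the other 6 genes are lower.

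The inhibitor genes carried the most abundant messages of the group that were lower in resistant cells. SPINT2 (ENSG00000167642, chr19:38244035-38292614, plus strand, GRCh38) had 6.92 and 6.40 CPM in resistant replicates 1 and 2, against 111 and 120.3 CPM in wild-type replicates 1 and 2. The resistant libraries lay close together and far below both wild-type libraries. Its mean was 6.66 ± 0.367 CPM in resistant and 116 ± 6.26 CPM in wild-type cells (SD, n = 2 each), 17.4-fold lower, with a fitted log2 change of -4.12 ± 0.14 (SE). SPINT1 (ENSG00000166145, chr15:40844018-40858207, plus strand) had 6.48 and 5.97 CPM in resistant replicates and 15.8 and 18.7 CPM in wild-type replicates. Here too the groups did not overlap, but the difference was smaller, with a log2 change of -1.47 ± 0.17 and a 2.77-fold lower mean. An antisense gene, SPINT1-AS1, shares 100 exonic bases with SPINT1 on the other strand. SPINT1-AS1 had 1.10 and 0.950 CPM in resistant replicates, against 5.38 and 4.91 CPM in wild-type replicates. The libraries keep strand, but whether counting used it is not given in the sources used here, so reads of SPINT1 and its antisense gene may not be fully separated. For SPINT2, 4.7% of the exonic bases are shared with AC011479.1, which lies on the same strand, so strand cannot separate reads from these bases. AC011479.1 had 3.24 and 3.73 CPM in resistant replicates, against 6.03 and 6.29 CPM in wild-type replicates.

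In CPM, SPINT2 was above SPINT1 in all 4 libraries, though only slightly in resistant cells. Levels of the genes compared per length were divided by the annotated exon bases, 5199 for SPINT2 and 3542 for SPINT1, and on that scale the order of the inhibitors differed between the groups. Per kilobase of exon, SPINT2 was at 1.33 and 1.23 CPM per kb in resistant replicates and at 21.4 and 23.1 CPM per kb in wild-type replicates. SPINT1 was at 1.83 and 1.68 CPM per kb in resistant replicates and at 4.45 and 5.27 CPM per kb in wild-type replicates. On this scale SPINT2 stood at 0.727 and 0.731 times the level of SPINT1 in resistant cells, against 4.82 and 4.39 times in wild-type cells. The order in resistant cells rests on the lengths used, which join all annotated exons of a gene. The lengths of the transcripts expressed were not measured, so SPINT1 above SPINT2 is not established. SPINT1 made up 57.9% and 57.8% of the summed inhibitor level per kb in resistant replicates, and 17.2% and 18.6% in wild-type replicates.

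TMPRSS4 and TMPRSS3 were the membrane proteases with the highest levels per kb in wild-type cells, and hardly any of their reads were left in resistant cells. TMPRSS4 (ENSG00000137648, chr11:118077012-118121890, plus strand), a protease described as overexpressed in several carcinomas, had 0 reads in both resistant libraries, against 264 and 311 reads in wild-type replicates. Wild-type levels were 6.20 and 6.06 CPM. Against a floor of 3 reads over both resistant libraries together, TMPRSS4 was 306-fold lower, a value set by that floor. The 95% exact binomial interval of its pooled ratio, wild-type over resistant, began at 248. TMPRSS3 (ENSG00000160183, chr21:42371837-42396846, minus strand), which is mutated in an inherited form of deafness, had 0 and 4 reads in resistant replicates 1 and 2, against 117 and 112 reads in wild-type replicates. In CPM these are 0 and 0.0481 in resistant and 2.75 and 2.18 in wild-type replicates. The ratio of pooled TMPRSS3 counts, wild-type over resistant, was 91.3, with a 95% exact binomial interval of 35.2 to 338. Both intervals hold counting error alone, without the spread between libraries. They describe genes chosen with the comparison known and are not tests. The log2 change of TMPRSS3 was -6.44 ± 0.66, or -5.61 without resistant replicate 1, and without resistant replicate 2 it is against 0 reads. Neither gene shares exonic bases with another annotated gene.

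ST14 and PRSS8, the best studied pair of the group, were near the limit of detection in both kinds of cells. ST14 (ENSG00000149418, chr11:130159562-130210376, plus strand) had 14 and 3 reads in resistant replicates 1 and 2, against 20 and 41 reads in wild-type replicates 1 and 2. That is 0.210 and 0.0361 CPM in resistant and 0.470 and 0.799 CPM in wild-type replicates, and the groups did not overlap although their members differed widely. The log2 change of ST14 was -2.40 ± 0.80, and edgeR no longer called it without resistant replicate 2 (-1.58) or without wild-type replicate 2 (-1.96), while it was -4.06 without resistant replicate 1. PRSS8 (ENSG00000052344, chr16:31131433-31135762, minus strand) had 0.660 and 0.421 CPM in resistant replicates and 0.282 and 0.526 CPM in wild-type replicates. These ranges overlapped, and the log2 change was 0.40 ± 0.58, the only one of the tested genes that was not called. It ran from 0.04 without wild-type replicate 1 to 0.93 without wild-type replicate 2. At 12 to 44 reads per library a difference of this size was not detectable. An antisense gene covers 11.9% of the exonic bases of PRSS8 and was listed at 0.

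TMPRSS2 (ENSG00000184012, chr21:41464551-41531116, minus strand), known as an androgen-regulated gene of prostate epithelium and as a protease that primes respiratory viruses, had 0 reads in both resistant libraries and 0 and 1 reads in wild-type replicates 1 and 2. Through that 1 read it counts as measured, but it did not pass the filter on low counts, and no fold is given.

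Added up per kb of exon, the membrane-anchored proteases ST14, PRSS8, TMPRSS2, TMPRSS3 and TMPRSS4 reached 0.268 and 0.157 CPM per kb in resistant replicates and 1.31 and 1.35 CPM per kb in wild-type replicates. The inhibitors together reached 3.16 and 2.91 CPM per kb in resistant replicates and 25.9 and 28.4 CPM per kb in wild-type replicates. On this scale the inhibitor messages exceeded those of the membrane proteases 11.8 and 18.6 times in resistant replicates, and 19.8 and 21.0 times in wild-type replicates. These ratios rest on the lengths used, 9948 exon bases for TMPRSS4 against 3010 for PRSS8. In CPM not divided by length, the excess was larger in both resistant replicates than in the wild-type replicates. The order of the groups is therefore not established, and few protease reads underlie the resistant ratios. Most of the protease sum came from PRSS8 in resistant cells and from TMPRSS4 and TMPRSS3 in wild-type cells.

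**Figure D2:**
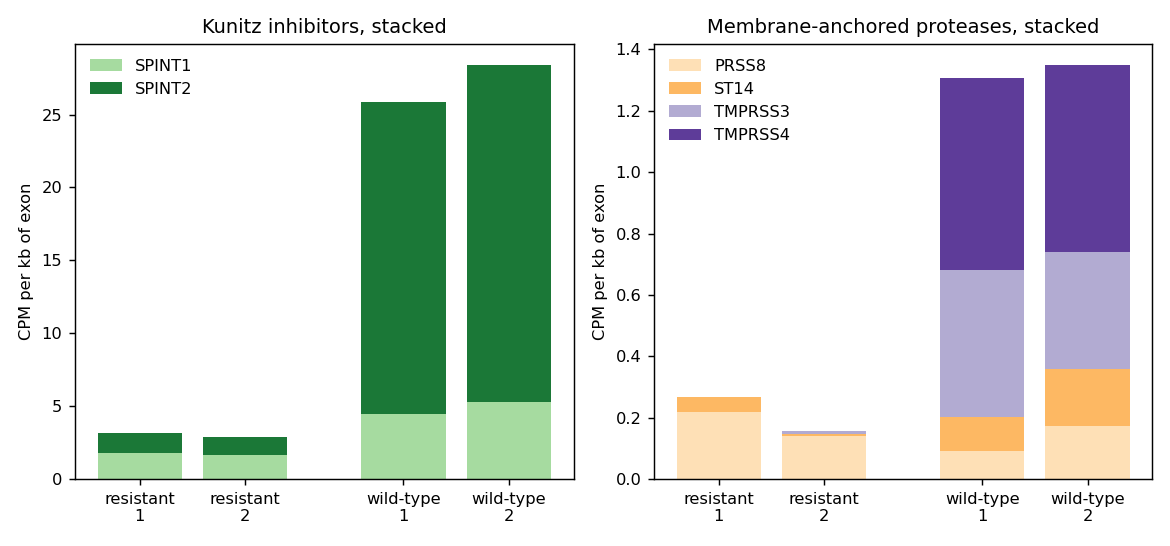
Summed levels in CPM per kb of exon (vertical axes from 0) of the inhibitors (left panel) and of the membrane-anchored proteases (right panel) in each library, resistant libraries to the left of wild-type libraries. Inhibitors sum to 3.16 and 2.91 in resistant and 25.9 and 28.4 in wild-type replicates, and the share of SPINT1 is larger in resistant cells. TMPRSS2, at 0 in 3 of the libraries, is too low to be drawn.

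The secreted proteases went in opposite directions. PRSS23 (ENSG00000150687, chr11:86791059-86952910, plus strand), which encodes a trypsin-family protease, had 209.5 and 184 CPM in resistant replicates 1 and 2, against 57.1 and 58.4 CPM in wild-type replicates. Both resistant libraries lay above both wild-type libraries, as they did for 37.2% of all tested genes. The mean was 197 ± 17.8 CPM in resistant and 57.7 ± 0.868 CPM in wild-type cells (SD, n = 2 each), 3.41-fold higher, with a log2 change of 1.77 ± 0.12. PRSS23 was the most abundant message of the group in resistant cells, at 17.9 and 15.7 CPM per kb in resistant replicates and 4.87 and 4.98 CPM per kb in wild-type replicates. The summed inhibitors stood at 0.177 and 0.185 times PRSS23 per kb in resistant replicates, against 5.31 and 5.71 times in wild-type replicates. These are ratios of messages, and whether the inhibitors act on the PRSS23 protease was not tested. The Wnt and norrin receptor gene FZD4 lies across the 3' part of PRSS23 on the other strand and shares 1399 exonic bases with it. FZD4 had 1.64 and 2.08 CPM in resistant replicates and 0.657 and 0.448 CPM in wild-type replicates, a log2 change of 1.76 ± 0.38 (edgeR adjusted p = 0.00313), and how its reads were separated from those of PRSS23 is not given.

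PRSS22 (ENSG00000005001, chr16:2852727-2858170, minus strand), a tryptase of airway epithelium, had 5 and 2 reads in resistant replicates against 11 and 21 reads in wild-type replicates. The levels were 0.0750 and 0.0241 CPM in resistant and 0.258 and 0.409 CPM in wild-type replicates, without overlap. An antisense gene that shares 29 exonic bases with PRSS22 was listed at 0. The pooled ratio, wild-type over resistant, was 7.29 with a 95% exact binomial interval of 3.16 to 19.6, again of counting error alone and not a test. Its log2 change was -2.76 ± 0.88. PRSS22 was no longer called by DESeq2, without a filter on low counts, or without wild-type replicate 2 (-2.38), resistant replicate 1 (-3.68) or resistant replicate 2 (-2.12).

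**Figure D3:**
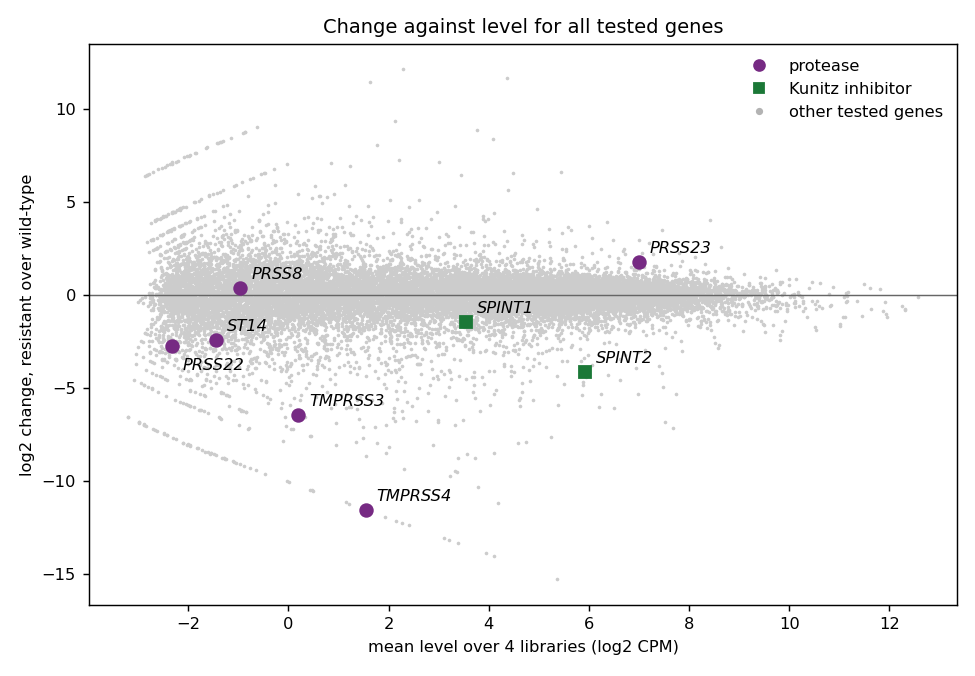
Fitted log2 change, resistant over wild-type (vertical axis), against the mean level over the 4 libraries in log2 CPM (horizontal axis) for all 18602 tested genes (grey), with the 6 tested proteases (circles) and both inhibitors (squares) marked. SPINT2 stands among the lower genes at a high level, PRSS23 is the one marked gene well above 0, and the value drawn for TMPRSS4, at 0 reads in resistant cells, depends on the prior count of the fit.

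Few of the other serine proteases listed were tested, and most of those did not pass. Of 13 further type II transmembrane serine proteases, 10 had reads and 4 were tested, with a median log2 change of -0.13. edgeR called 0 of the 4 lower and 0 higher, DESeq2 called 0 as well, and at an unadjusted p under 0.05 there were 0 lower and 0 higher. CORIN, which processes natriuretic peptides, was at 11.5 ± 0.120 CPM in resistant and 9.57 ± 0.350 CPM in wild-type cells. Hepsin (HPN), a protease of liver and prostate that cleaves some of the same substrates as matriptase, had 1 and 7 reads in resistant replicates and 0 and 5 reads in wild-type replicates, too few for the test. A further list, called the other trypsin-like proteases, held 26 genes with PRSS or KLK symbols, not all of the trypsin family. Of these, 13 had reads and 7 were tested, of which 2 were lower and 0 higher, with a median of -0.25. At an unadjusted p under 0.05, 3 were lower and 1 higher, and DESeq2 called 3 lower and 0 higher. PRSS16, a thymic serine protease outside the trypsin family, fell to 5.43 ± 0.326 CPM in resistant cells, against 9.59 ± 0.317 CPM in wild-type cells (edgeR adjusted p = 0.00275). The kallikrein KLK14 had 11 and 24 reads in resistant replicates and 46 and 45 reads in wild-type replicates (log2 change -2.08 ± 0.54, edgeR adjusted p = 0.0089). Its call was lost without resistant replicate 1 (-1.74, edgeR adjusted p = 0.0671).

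Other genes for proteins with Kunitz domains or of the serpin family moved both ways. Of 15 such genes 10 were tested, 4 fell and 2 rose, beside 23.2% lower and 22.1% higher over the whole table, and the median log2 change was -0.73. SERPINA1, which encodes the plasma inhibitor alpha-1-antitrypsin, had 7.08 and 6.10 CPM in resistant replicates and 31.8 and 25.1 CPM in wild-type replicates, a log2 change of -2.11 ± 0.17 (edgeR adjusted p = 2.82e-06). APLP2, a Kunitz-containing relative of the amyloid precursor, had 574 and 479 CPM in resistant replicates and 1419.8 and 1382 CPM in wild-type replicates, and fell by 1.41 ± 0.12 on the log2 scale (edgeR adjusted p = 4.11e-06). The protein C inhibitor gene SERPINA5, known to inhibit several trypsin-like proteases, was at 0.535 ± 0.00774 CPM in resistant and 1.43 ± 0.0671 CPM in wild-type cells (edgeR adjusted p = 0.0123). SERPINB5 went the other way, with 17.5 and 15.9 CPM in resistant replicates and 2.89 and 2.57 CPM in wild-type replicates. Its log2 change was 2.61 ± 0.18 (edgeR adjusted p = 7.76e-07). SERPINB5 encodes maspin, a serpin by family that is not an inhibitor of such proteases.

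Genes listed as substrates and partners of these proteases moved both ways. Of 17 listed, 11 were tested, 6 fell and 2 rose, beside 23.2% lower and 22.1% higher over the whole table, and the median log2 change was -0.65. Whether the list differs from the whole table was not tested. F2RL1, the receptor PAR2 that matriptase and other trypsin-like proteases cleave, had 155 and 136 CPM in resistant replicates and 71.7 and 71.7 CPM in wild-type replicates. Its log2 change was 1.02 ± 0.12 (edgeR adjusted p = 3.84e-05). MET, the receptor of hepatocyte growth factor, had 448 and 344 CPM in resistant replicates, against 160 and 149 CPM in wild-type replicates, a log2 change of 1.36 ± 0.14 (edgeR adjusted p = 1.51e-05). Its ligand HGF, which these proteases activate, was listed at 0, and so was SCNN1G, the gamma chain of the epithelial sodium channel that prostasin acts on.

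The alpha chain of that channel, SCNN1A, fell to 1.86 and 1.36 CPM in resistant replicates, against 11.8 and 12.0 CPM in wild-type replicates (log2 change -2.89 ± 0.21, edgeR adjusted p = 1.31e-06). The epithelial adhesion molecule EPCAM, which matriptase cleaves, fell by 3.13 ± 0.18 on the log2 scale. EPCAM stood at 3.06 and 4.13 CPM in resistant replicates and 30.9 and 32.3 CPM in wild-type replicates. The growth factor activator HGFAC had 23 and 3 reads in resistant replicates and 62 and 77 reads in wild-type replicates, and its log2 change of -3.00 ± 0.71 was -5.27 without resistant replicate 1 and -2.08 without resistant replicate 2. The mucin MUC16, the source of the CA125 antigen, fell by 5.80 ± 0.56 with 2 and 3 reads in resistant replicates and 77 and 109 reads in wild-type replicates. The edgeR adjusted p-values were 1.77e-07 for EPCAM, 0.00519 for HGFAC and 1.1e-05 for MUC16. The urokinase gene PLAU, with 0.645 and 0.373 CPM in resistant and 0.164 and 0.312 CPM in wild-type replicates, did not pass (edgeR adjusted p = 0.207). The matriptase substrate CDCP1 was at 109 ± 21.0 CPM in resistant and 112 ± 5.30 CPM in wild-type cells, with a log2 change of -0.04 ± 0.14 (edgeR adjusted p = 0.82).

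**Figure D4:**
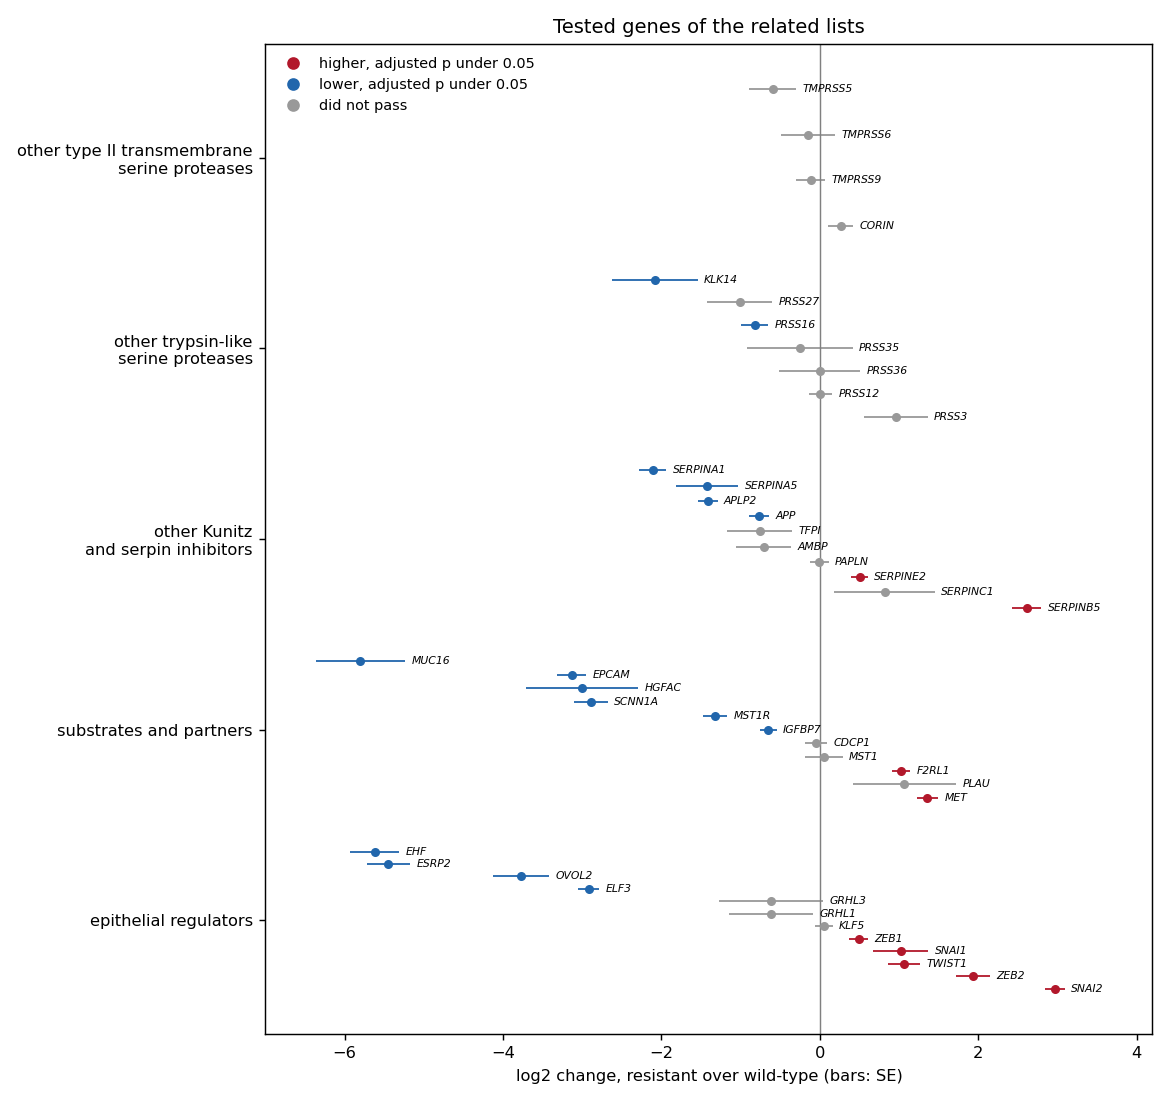
Log2 change, resistant over wild-type, with its SE (horizontal axis) for every tested gene of the 5 related lists (rows). Red points were higher and blue points lower at an edgeR adjusted p under 0.05, and grey points did not pass. None of the 4 further type II transmembrane serine proteases passed, while 8 of 11 substrates and partners did, F2RL1 and MET upward.

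The list of regulators of the epithelial state joins epithelial transcription and splicing factors with factors of mesenchymal transition. Called genes of the first kind were lower and those of the second kind higher, and the median given here is over both kinds. Of 15 listed, 12 were tested, 4 fell (EHF, ESRP2, OVOL2 and ELF3) and 5 rose (SNAI2, SNAI1, ZEB1, ZEB2 and TWIST1), beside the same 23.2% and 22.1% over the whole table, and the median log2 change was -0.28. The ETS factor EHF was at 1.43 and 0.565 CPM in resistant replicates and 50.8 and 44.9 CPM in wild-type replicates, a log2 change of -5.62 ± 0.31. The splicing regulator ESRP2 fell by 5.45 ± 0.27 and the zinc finger factor OVOL2 by 3.77 ± 0.35. SNAI2 had 149.6 and 165 CPM in resistant replicates and 20.4 and 19.8 CPM in wild-type replicates, a log2 change of 2.97 ± 0.12. Their edgeR adjusted p-values were 1.21e-07 for EHF, 6.46e-08 for ESRP2, 8.34e-06 for OVOL2 and 1.46e-08 for SNAI2.

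The surroundings of the genes on their chromosomes differed. Within 500 kb of the start of SPINT2, 13 of 18 other tested genes were lower in resistant cells, with a median log2 change of -0.77, against 23.2% lower over the whole table. AC011479.1, which shares exonic bases with SPINT2, is among the 13. The lowest of these neighbours was at -1.56, so the -4.12 of SPINT2 lay outside their range. Around ST14, 6 of 7 tested genes were lower with a median of -1.41, and the -2.40 of ST14 lay within their range of -3.84 to -0.19. APLP2 is among the ST14 neighbours, with its lower coordinate at -91.4 kb from that of ST14. Around TMPRSS3, 5 of 10 genes were lower and 3 higher, with a median of -0.92 and a range of -5.93 to 0.81. The lowest was the cholesterol transporter gene ABCG1, at -172.1 kb. Around TMPRSS4 in 11q23, 4 of 10 were lower and 2 higher with a median of -0.16 and none below -2. The value of TMPRSS4 itself at the floor of 3 reads, -8.26, lay far from these. Around SPINT1, 7 of 29 were lower and 7 higher with a median of 0.05. Around PRSS23 in 11q14, 2 of 7 were lower and 2 higher, with FZD4 among the higher ones. PRSS8 and PRSS22 lay among 38 and 44 tested neighbours with medians of -0.02 and -0.33. Copy number was not measured, and its part in these values was not tested.

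**Figure D5:**
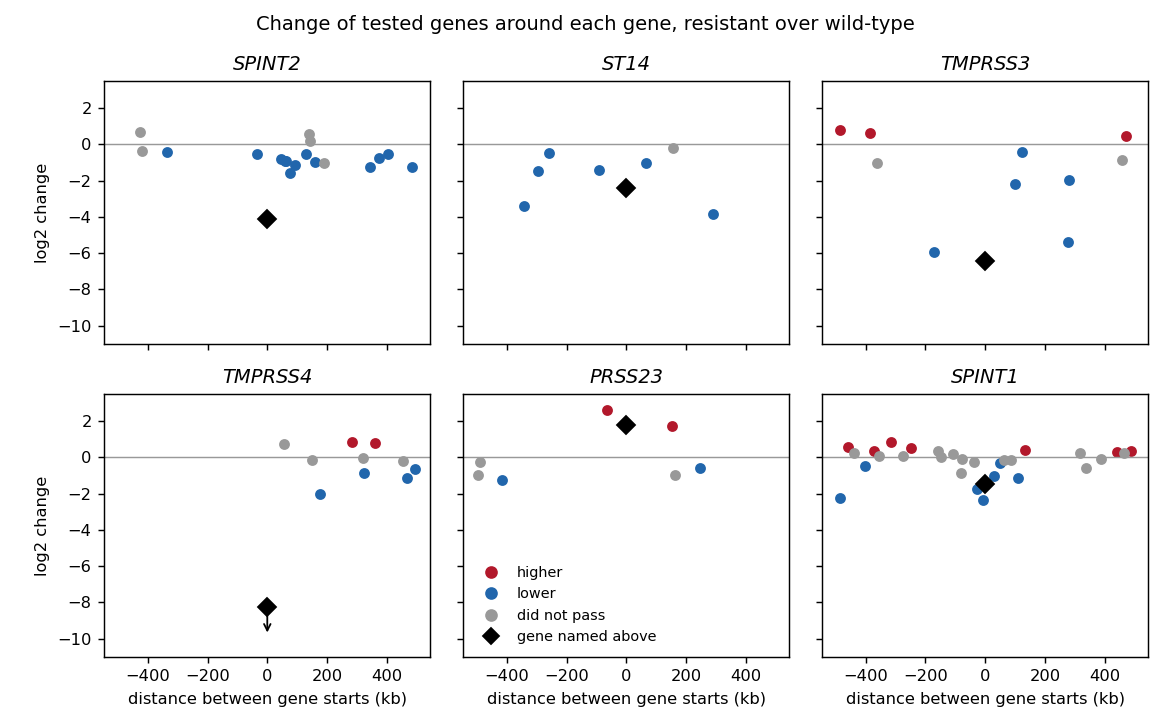
Log2 change, resistant over wild-type (vertical axis), of tested genes within 500 kb of 6 of the genes (points) against the distance between gene starts in kb, taken at the lower coordinate (horizontal axis). Diamonds are the named genes, and that of TMPRSS4 is its bound of -8.26, with an arrow. Neighbours of SPINT2 and ST14 lie mostly below 0. Those of TMPRSS3, with a median of -0.92, and of TMPRSS4, PRSS23 and SPINT1 lie on both sides.

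The genes whose profile over the 4 libraries was most like that of PRSS23, the tested gene of the group with the highest mean level, were DSG2-AS1, C1orf61, COL4A5, CFAP43 and ETV1. After each profile was centred, their log2 CPM, computed with a prior count of 2, differed from PRSS23 by a root mean square of 0.0138 to 0.0422. The prior count shrinks the profiles of genes with few reads, so these differences are not those of plain CPM. C1orf61, at 0.117 CPM in both wild-type replicates, had a fitted log2 change of 2.05. COL4A5, a basement membrane collagen chain, had 94.8 and 81.1 CPM in resistant replicates and 27.1 and 26.8 CPM in wild-type replicates. For TMPRSS4, the gene with the largest fitted change of the other sign, the most similar genes included CYB5R2, MGAT3, TSPAN2 and ACCS, with differences of 0.0832 to 0.188. At 0 reads in resistant cells the log2 CPM of TMPRSS4 is set by the prior count, and so is this likeness. MGAT3, which encodes a glycosyltransferase, had 0.210 and 0.241 CPM in resistant replicates and 53.7 and 54.1 CPM in wild-type replicates. With 4 libraries in 2 groups such a likeness mostly reflects the difference between the groups.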

How the data were processed

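RNA sequencing counts of 4 SKOV3 libraries were used. The authors deposited raw counts per gene. Per the submitters' processing notes, the tools were STAR 2.5.1a, HTSeq and DESeq, and the build was GRCh38.p7. How strand and overlapping genes were handled in counting is not stated. A gene listed at 0 in every library was treated as not measured. A further table of values normalized by the authors was not used.

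All genes were fitted together with edgeR 4.0.16 in R 4.3.3 (quasi-likelihood F test, TMM factors, filterByExpr with a minimum count of 10 and a minimum total of 15, one term for group). Benjamini-Hochberg adjustment ran over all tested genes, and a gene was called at an adjusted p under 0.05. CPM uses TMM-scaled library sizes, and CPM per kb divides it by the union of exons in GENCODE release 29, whose GRCh38 positions were used. That union can be longer than the transcripts expressed, so ratios between genes per kb depend on it. The SE of a log2 change is its size over the square root of F. The fit was tested on simulated data. DESeq2 1.42.0, RLE size factors, other filters, a replicate block and leaving out each library were tried. Python 3.11.15, pandas 2.3.3 and matplotlib 3.10.9 served for tables and figures.

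The genes described and the related lists were chosen by name and function, with earlier results of these data known. Therefore no p-value is given for the 9 genes themselves. Named genes of a list are the up to 4 called genes with the largest changes and fixed partners of the proteases. Of the genes these rules name, 2 are not reported here, and 1 of them was left out of its list. Only counting error enters the intervals and floors, and PCR copies are not independent molecules. The design text calls the libraries biological replicates and does not say whether they came from separate selections, so the spread may be partly technical.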

Additional observations from a re-analysis of the deposited data

How the results depend on the processing

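All directions held in the alternatives tried for the 8 tested genes of the group and for every called gene named from the related lists. Requiring a mean of at least 5 CPM left 2 of the proteases and inhibitors called lower, in place of 6, because fewer genes were then tested. For the same reason it left 1 of the genes listed as other trypsin-like proteases, in place of 2. Leaving out 1 library at a time gave 4 to 6 of the proteases and inhibitors lower and 1 higher, and 1 to 3 of the other trypsin-like proteases lower. In such fits the lone library of a group is assumed to vary like the other group. DESeq2 gave 5 lower and 1 higher, and RLE size factors gave 6 and 1. The replicate numbers are shared by the groups, but deviations of same-numbered libraries correlated at only 0.0797, so the numbers are not taken as pairs. With a replicate block, 6 of the genes were called lower and 1 higher, and 4879 and 4767 genes over the whole table, in place of 4308 and 4112. Counts of the libraries of a group were further apart than sampling allows (chi-square per degree of freedom 50.5 in resistant and 18.3 in wild-type cells). Depth limits ST14, PRSS8, PRSS22 and TMPRSS2, which had at most 44 reads in any library.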
